A study of Rattus norvegicus with 12 samples.

Results

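The genes described here are 33 genes of the unfolded protein response and of protein folding in the endoplasmic reticulum (ER), followed in rat kidney fibroblasts that carried extra HDAC1 and were exposed to TGFB1. They were taken by gene name from a fixed list of ER chaperones and their helpers (11 genes), disulfide enzymes (5), ER-associated degradation (6), stress sensors and Xbp1 (4), the ATF4 branch (5) and transport across or out of the ER (2). The authors' normalized table lists 14275 genes and holds all 33. All 33 also passed the filter on low counts and are among the 14601 genes tested, so none was lost.

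Poly(A) RNA of NRK-49F cells, a line of normal rat kidney fibroblasts, was sequenced in 12 libraries that form 4 groups of 3. The groups were HDAC1 with TGFB1, empty vector with TGFB1, HDAC1 with vehicle and empty vector with vehicle. HDAC1 cells had received a plasmid for human HDAC1 with a Flag tag, and control cells the empty plasmid pcDNA3.1. HDAC1 is an enzyme that takes acetyl groups off histones, and TGFB1 is a cytokine that drives fibroblasts to make matrix. The cytokine was given at 2 ng/ml in medium with 0.5% FBS for 24 h, and vehicle was the same medium, so all 4 groups share low serum and a transfection. The labels state neither how many cells took up the plasmid nor whether the 3 libraries of a group came from separate cultures, so p-values measure the spread between libraries, which may be technical. Whether all cells changed, or only some of them, cannot be told apart in bulk RNA, and nor can fewer cells and less RNA per cell.

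The ER is where secreted and membrane proteins fold. Membrane proteins sense unfolded chains there. They are IRE1 (gene Ern1), which splices the mRNA of the transcription factor XBP1, ATF6, which is cut to release a transcription factor, and PERK (gene Eif2ak3), which slows translation and thereby raises the transcription factor ATF4. ATF6 and XBP1 are known to switch on chaperones, disulfide isomerases and the degradation machinery, and ATF4 to switch on Ddit3 (CHOP), Trib3, Chac1 and Ppp1r15a. Fibroblasts that make collagen and fibronectin send large amounts of protein through this compartment. Splicing of Xbp1, cutting of ATF6 and the proteins themselves were not measured here.

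The elements through which these factors are known to act could be seen in the promoters of many of the genes. RefSeq promoters (assembly GRCr8, 250 bases before to 50 bases after the start of the gene) were at hand for 25 of the 33 genes, and are not shown for Pdia3, Pdia6, Manf, Derl1, Ern1, Atf6, Sec24d and Ero1a. Both strands were searched for the ER stress element ERSE (CCAAT, any 9 bases, CCACG), for ERSE-II (ATTGG, any 1 base, CCACG), for the XBP1 element UPRE (TGACGTGG) and for the ATF4 element CARE (TGATG, any 1 base, AA). The promoter of Hspa5, the gene of the main ER chaperone, is shown whole because Hspa5 is the classical target. It lies at chr3:38452766-38453065 on the plus strand, and capitals mark its ERSE, which begins at base -43 from the start.
Hspa5 promoter: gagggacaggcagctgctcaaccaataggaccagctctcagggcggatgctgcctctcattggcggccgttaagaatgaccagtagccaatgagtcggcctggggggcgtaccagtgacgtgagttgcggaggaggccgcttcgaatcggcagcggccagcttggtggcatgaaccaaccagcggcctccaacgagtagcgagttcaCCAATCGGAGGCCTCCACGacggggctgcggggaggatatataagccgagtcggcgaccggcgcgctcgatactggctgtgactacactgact

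ERSE was found in 8 of the 25 genes (32%) and in 21 of all 27457 genes with a promoter (0.076%). ERSE-II was found in 3 of 25 (12%) and in 17 of all (0.062%). UPRE was found in 1 of 25 (4%), where it overlaps an ERSE-II of Hyou1, and in 187 of all (0.681%). CARE was found in 3 of 25 (12%) and in 1141 of all (4.16%). A gene was counted if any of its promoters held the element. The 25 genes were picked as members of this response and are part of all genes, and no test was run on these shares. Sites of other genes are shown with 10 bases on either side, 5′ to 3′ along the gene, so that the shared ends and the free middle can be compared with the expression below. Capitals mark the ERSE or ERSE-II, and a site on the opposite strand reads CGTGG first.
Hsp90b1 ERSE (GRCr8 chr7:23012244-23012543, minus strand, first base of the site at -176): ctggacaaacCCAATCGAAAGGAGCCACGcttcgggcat
Hsp90b1 ERSE (GRCr8 chr7:23012244-23012543, minus strand, first base of the site at -72): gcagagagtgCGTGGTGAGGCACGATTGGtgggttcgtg
Calr ERSE (GRCr8 chr19:40213117-40213416, plus strand, first base of the site at -232): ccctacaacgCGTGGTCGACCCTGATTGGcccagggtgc
Hyou1 ERSE-II (GRCr8 chr8:53602632-53602931, plus strand, first base of the site at -188): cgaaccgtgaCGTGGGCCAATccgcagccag
Hyou1 ERSE-II (GRCr8 chr8:53602632-53602931, plus strand, first base of the site at -88): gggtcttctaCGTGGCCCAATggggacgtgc
Dnajb11 ERSE-II (GRCr8 chr11:91672751-91673050, minus strand, first base of the site at -10): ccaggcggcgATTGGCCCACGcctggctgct
Dnajc3 ERSE (GRCr8 chr15:102432417-102432716, plus strand, first base of the site at -133): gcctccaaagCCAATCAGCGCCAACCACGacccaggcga
Creld2 ERSE (GRCr8 chr7:121789134-121789433, plus strand, first base of the site at -145): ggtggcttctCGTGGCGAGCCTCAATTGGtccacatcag
Herpud1 ERSE-II (GRCr8 chr19:10614658-10614957, minus strand, first base of the site at -124): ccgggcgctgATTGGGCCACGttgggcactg
Derl3 ERSE (GRCr8 chr20:12766416-12766715, minus strand, first base of the site at -154): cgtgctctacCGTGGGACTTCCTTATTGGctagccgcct
Xbp1 ERSE (GRCr8 chr14:84604373-84604672, plus strand, first base of the site at -65): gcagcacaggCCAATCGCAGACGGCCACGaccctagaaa

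The CARE sites are shown for the ATF4 side of the response, with capitals on the element, which reads TT first where it lies on the opposite strand. Trib3 and Chac1 are known ATF4 targets, and Herpud1 carries CARE beside its ERSE-II.
Herpud1 CARE (GRCr8 chr19:10614658-10614957, minus strand, first base of the site at -184): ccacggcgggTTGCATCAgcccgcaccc
Trib3 CARE (GRCr8 chr3:161275484-161275783, minus strand, first base of the site at -21): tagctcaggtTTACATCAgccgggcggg
Chac1 CARE (GRCr8 chr3:126795881-126796180, plus strand, first base of the site at -167): ttctccgccgTTGCATCActcctgctag
A match describes letters in this window and does not show that a factor binds there.

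Library totals ran from 18397093 to 36652084 counts. Levels are given as CPM, counts scaled to the library's total over the tested genes and corrected by TMM, and are not divided by gene length, so they are compared between groups and not between genes. Hdac1 had 501, 416 and 474 CPM in HDAC1 with TGFB1, against 259, 250.2 and 290.4 CPM in empty vector with TGFB1. It had 428, 375 and 460.4 CPM in HDAC1 with vehicle, against 212, 205 and 212 CPM in empty vector with vehicle, so the lowest HDAC1 library exceeded the highest empty vector library. The near copy Hdac1l had 802 to 1367 CPM in the HDAC1 libraries and 0.530 to 15.1 CPM in the empty vector libraries. How reads of the human plasmid were shared out between the rat genes is not given in the sources used here. Of 8 fibroblast markers, 6 were matched, Col1a1 and Col1a2 among them. They summed to 11290 to 13250 CPM in HDAC1 with TGFB1, 13300 to 15900 CPM in empty vector with TGFB1, 8781 to 10210 CPM in HDAC1 with vehicle and 10970 to 12590 CPM in empty vector with vehicle. Of 7 leukocyte markers, 2 were matched and summed to 2.43 to 3.53 CPM, 3.57 to 5.01 CPM, 5.42 to 8.30 CPM and 9.28 to 10.6 CPM in the same order of groups. Of the 2, Cd68 was called lower with TGFB1 for either plasmid and with HDAC1 in vehicle. Of 7 endothelial markers, 5 were matched and summed to 2.92 to 6.13 CPM over all libraries. With TGFB1, 4 of the 5 were called lower and 1 higher in HDAC1 cells. In empty vector cells 1 was called lower and 0 higher, and 3 of the 5 had log2 fold changes above 0. Of 8 tubule markers, 1 was matched, Cubn, at 1.17 to 6.35 CPM.

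Libraries also differed in transcripts of heart and brain. The sum of 20 heart genes was 140 to 157 CPM in HDAC1 with TGFB1, 414 to 525 CPM in empty vector with TGFB1, 225 to 436 CPM in HDAC1 with vehicle, and 66.5, 369 and 390.1 CPM in empty vector with vehicle. The 18 matched brain genes followed the same order of groups by range, with 48.1 to 52.7 CPM, 140 to 146 CPM, 83.8 to 132 CPM and 19.6 to 117 CPM. These sums were therefore lower with TGFB1 than with vehicle in HDAC1 cells, higher with TGFB1 than with vehicle in empty vector cells, and lower with HDAC1 than with empty vector under TGFB1. The part of these and of the marker sums above in the results below was not tested. Replicate 3 of empty vector with TGFB1 stood apart from its group, with a chi-square per degree of freedom of 16.6 and 19.0 against its fellow libraries, which differed from each other by 4.65. Replicate 1 of HDAC1 with vehicle also differed from its fellow libraries by more (13.5 and 10.3) than these differed from each other (6.18).

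With TGFB1, 7 of the 11 chaperone genes rose and 3 of the 5 genes of the ATF4 branch fell in empty vector cells. In HDAC1 cells 8 of 11 rose and 3 of 5 fell. Among 27 further ATF4 targets, 12 rose and 9 fell in empty vector cells, and 11 rose and 8 fell in HDAC1 cells. The chaperones Hspa5, Hsp90b1, Hyou1, Dnajb11, Dnajc3, Manf and Creld2, the degradation factor Edem1, the sensor gene Ern1, its target Xbp1 and the coat gene Sec24d rose in both empty vector and HDAC1 cells. Ddit3, Trib3, Ero1a, Sel1l and Syvn1 fell in both. In empty vector cells 11 of the 33 genes (33.3%) were called higher, where 25.9% of all 14601 genes were, and 8 (24.2%) were called lower, where 25% of all genes were (50.9% either way). In HDAC1 cells 13 (39.4%) were called higher, against 24.9% of all genes, and 6 (18.2%) lower, against 24.2% (49.1% either way). A call means that the quasi-likelihood test of edgeR gave a p under 0.05 after Benjamini-Hochberg adjustment across every gene tested. The median log2 fold change was 0.06 over the 33 genes and 0.01 over all genes in empty vector cells, and 0.11 and -0.02 in HDAC1 cells. The share called lower was close to that of all genes in empty vector cells. The 2 comparisons share no library, but they come from the same fit and share its estimate of the spread. In both, 11 genes were called higher, which is all of those called higher in empty vector cells and all but Canx and Pdia4 of those in HDAC1 cells. How many of all genes were called higher in both was not counted.

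**Figure D1:**
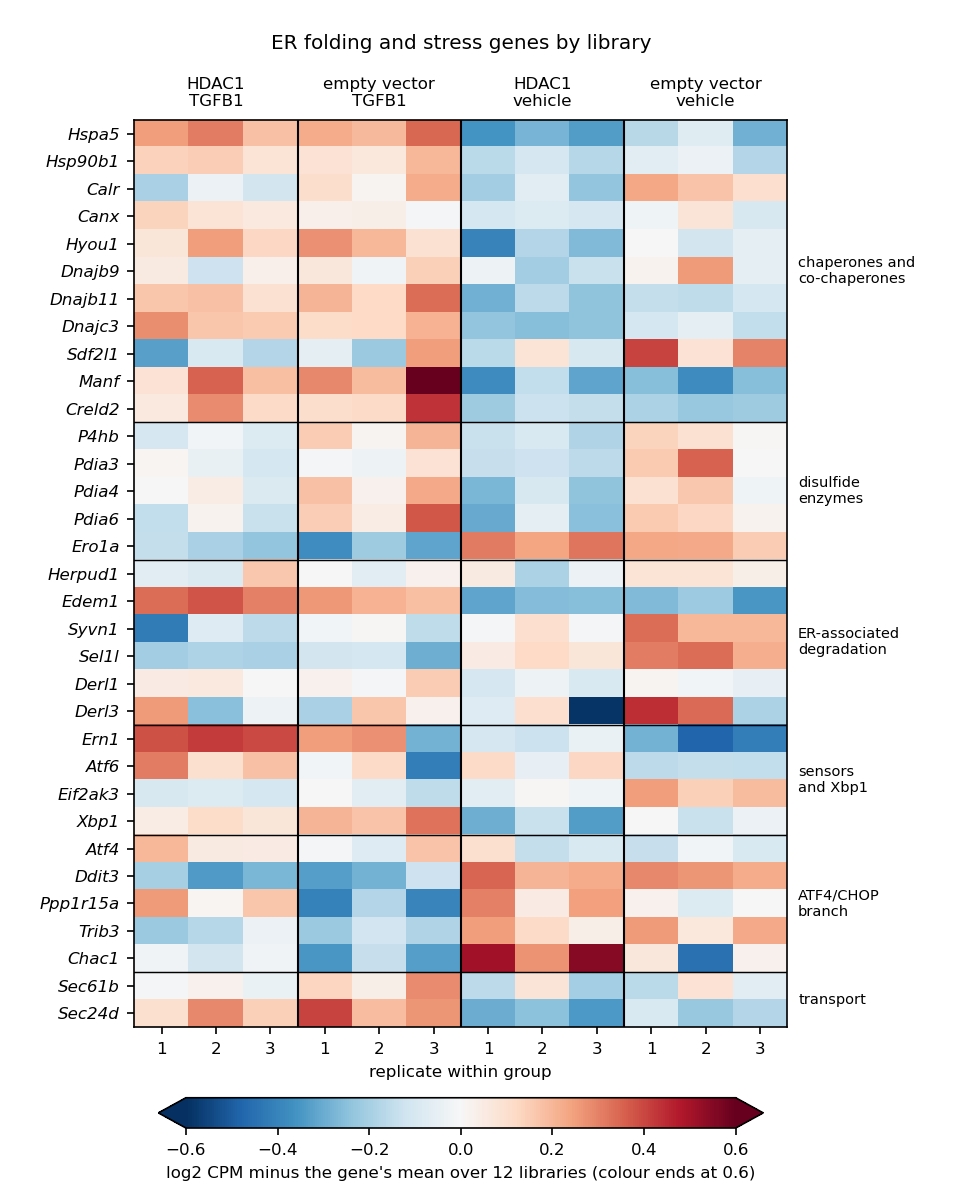
Heat map of the 33 genes (rows, grouped by role) in the 12 libraries (columns, replicate numbers within the 4 groups), coloured by log2 CPM minus the gene's own mean over all libraries. The TGFB1 libraries are red for Hspa5, Manf, Edem1 and Sec24d and blue for Ero1a, Sel1l and Ddit3, and replicate 3 of empty vector with TGFB1 is the reddest library for Manf and Creld2 and is blue for Ern1 and Atf6.

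Among the 11 chaperones and co-chaperones, TGFB1 raised 8 and lowered 0 in HDAC1 cells, and raised 7 and lowered 1 in empty vector cells. Hspa5 (ENSRNOG00000018294), the Hsp70 chaperone BiP that also holds the sensors inactive, had 1286, 1338 and 1222 CPM with TGFB1, against 845, 892 and 858 CPM with vehicle, in HDAC1 cells. Hspa5 had 1261, 1237 and 1375 CPM with TGFB1, against 966, 1030 and 887 CPM with vehicle, in empty vector cells. The TGFB1 libraries lay above the vehicle libraries with either plasmid, and the log2 fold change was 0.57 ± 0.07 (SE, adjusted p = 6.84e-07) with HDAC1 and 0.43 ± 0.07 (adjusted p = 2.17e-05) with the empty vector. Manf (ENSRNOG00000014201), a small protein of the ER that is made and secreted under ER stress, had 243, 292 and 259 CPM with TGFB1, against 176, 206 and 184 CPM with vehicle, in HDAC1 cells. Manf had 279, 261 and 354 CPM with TGFB1, against 192, 176 and 191 CPM with vehicle, in empty vector cells. Its groups did not overlap, and its log2 fold change in empty vector cells, 0.68 ± 0.10 (adjusted p = 1.62e-05), was the largest of the 33 genes there. With HDAC1 it was 0.49 ± 0.10 (adjusted p = 0.000502). Creld2, an ER protein with cysteine-rich repeats, averaged 92.5 ± 7.63 CPM with TGFB1 and 74.3 ± 2.31 CPM with vehicle in HDAC1 cells, and 97.2 ± 12.9 CPM with TGFB1 and 71.8 ± 1.02 CPM with vehicle in empty vector cells (SD, n = 3 each).

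Dnajb11, Dnajc3, Hyou1 and Hsp90b1 rose with smaller log2 fold changes than Hspa5. Dnajb11 (ERdj3), which hands substrates to Hspa5, averaged 191 ± 6.07 CPM with TGFB1 and 148 ± 6.99 CPM with vehicle in HDAC1 cells, and 202 ± 15.6 CPM with TGFB1 and 158 ± 2.67 CPM with vehicle in empty vector cells (SD, n = 3 each). Its log2 fold changes were 0.37 ± 0.06 and 0.36 ± 0.06 (adjusted p = 5.49e-05 and 7.75e-05). Dnajc3 (p58IPK), which is also known to restrain PERK, had 165, 152 and 151 CPM with TGFB1, against 115, 114 and 114 CPM with vehicle, in HDAC1 cells, a log2 fold change of 0.45 ± 0.06 (adjusted p = 1.96e-06). Dnajc3 had 146, 147 and 156 CPM with TGFB1, against 126, 130.1 and 122 CPM with vehicle, in empty vector cells, a log2 fold change of 0.25 ± 0.06 (adjusted p = 0.00116). Hyou1, the nucleotide exchange factor of Hspa5, rose by 0.43 ± 0.07 with HDAC1 (adjusted p = 3.69e-05) and by 0.24 ± 0.07 with the empty vector (adjusted p = 0.00655) on the log2 scale. Hsp90b1 (GRP94), the Hsp90 of the ER, rose by 0.27 ± 0.06 (adjusted p = 0.00133) and by 0.21 ± 0.06 (adjusted p = 0.00845). In empty vector cells the Hyou1 call ended without replicate 1 of the TGFB1 group (adjusted p = 0.0636) and the Hsp90b1 call without replicate 3 of the vehicle group (adjusted p = 0.0522). In HDAC1 cells the Creld2 call ended without replicate 2 of the TGFB1 group (adjusted p = 0.0532).

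The lectin chaperones, which hold glycoproteins while they fold, gave another picture. Calr (calreticulin) had 1247, 1391 and 1319 CPM with TGFB1, against 1234, 1362 and 1208 CPM with vehicle, in HDAC1 cells, and its groups overlapped (log2 fold change 0.06 ± 0.07, adjusted p = 0.53). In empty vector cells the value was -0.05 ± 0.07 (adjusted p = 0.572). Canx (calnexin) was called higher in HDAC1 cells, with 1066, 1028 and 1011 CPM with TGFB1, against 904, 917 and 907 CPM with vehicle (log2 fold change 0.19 ± 0.06, adjusted p = 0.0143), and was at 0.03 ± 0.06 (adjusted p = 0.653) in empty vector cells. That call ended without any 1 of the 3 TGFB1 libraries or without replicate 2 of the vehicle group (adjusted p up to 0.127). Sdf2l1, a partner of the DnaJ proteins, was called lower in empty vector cells, with 36.6, 32.5 and 45.2 CPM with TGFB1, against 50.2, 40.4 and 46.7 CPM with vehicle. Its groups overlapped, its log2 fold change was -0.27 ± 0.11 (adjusted p = 0.0445), and the call ended in 7 of 18 alternatives, among them leaving out replicate 1 or 2 of the TGFB1 group or replicate 1 or 3 of the vehicle group (adjusted p 0.104 to 0.21). Dnajb9 (ERdj4), a classical XBP1 target, had 30.9 to 34.9 CPM with TGFB1 and 29.1 to 32.9 CPM with vehicle in HDAC1 cells, and was not called with either plasmid (log2 fold changes 0.11 ± 0.09 and -0.01 ± 0.09, adjusted p = 0.322 and 0.931).

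**Figure D2:**
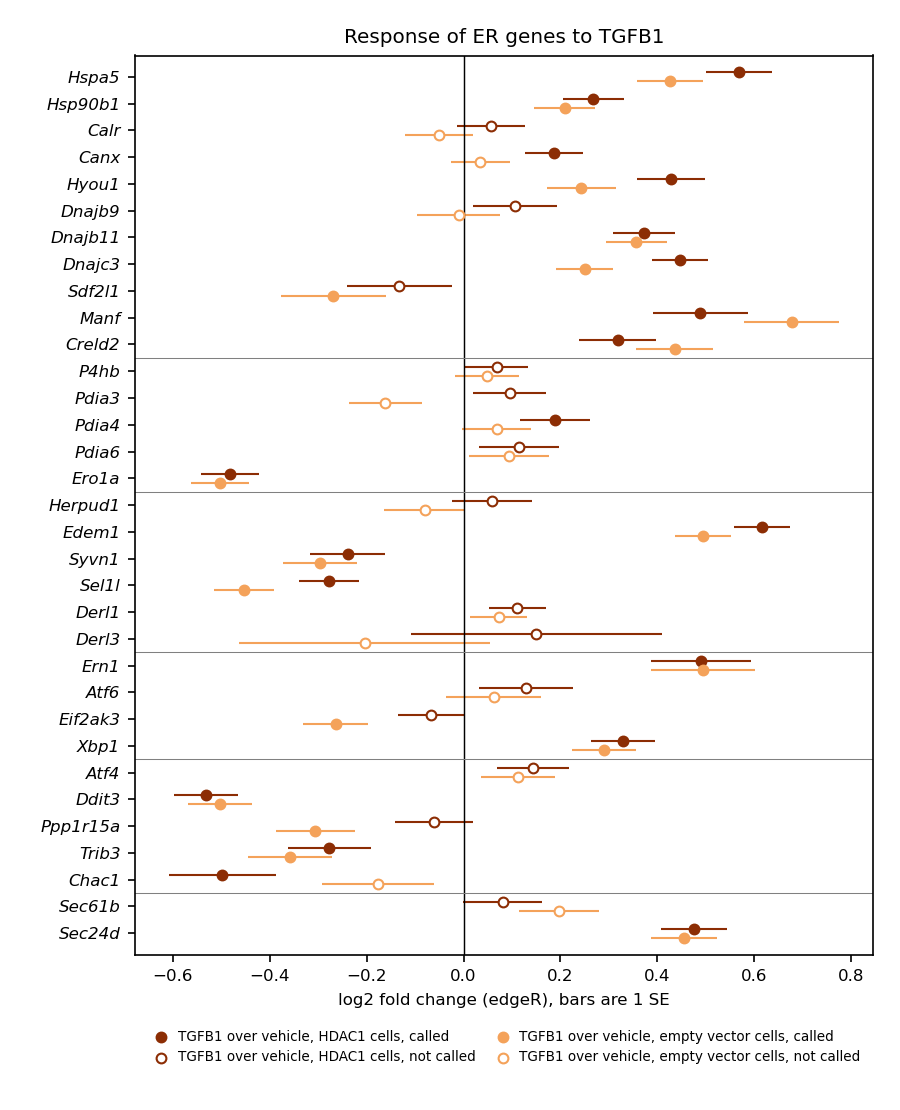
Log2 fold change of TGFB1 over vehicle for each of the 33 genes (rows, grouped by role) in HDAC1 cells and in empty vector cells, with bars of 1 SE and filled points for genes called at an adjusted p under 0.05. Both cell backgrounds put Hspa5, Manf, Edem1, Ern1 and Sec24d to the right of 0 and Ero1a, Sel1l, Ddit3 and Trib3 to the left.

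Of the 5 disulfide enzymes, TGFB1 raised 1 (20%) and lowered 1 (20%) in HDAC1 cells, and raised 0 and lowered 1 (20%) in empty vector cells. Over all genes 24.2% to 25.9% were called in 1 direction. Ero1a (ENSRNOG00000006462), the oxidase that recharges protein disulfide isomerase, had 111, 107 and 104 CPM with TGFB1, against 152, 144 and 152 CPM with vehicle, in HDAC1 cells. Ero1a had 94.3, 106 and 98.0 CPM with TGFB1, against 143, 143 and 136 CPM with vehicle, in empty vector cells. All TGFB1 libraries lay below all vehicle libraries, and Ero1a fell by 0.48 ± 0.06 with HDAC1 (adjusted p = 1.17e-06) and by 0.50 ± 0.06 with the empty vector (adjusted p = 5.79e-07) on the log2 scale. The isomerases had smaller log2 fold changes. Pdia4 was called higher in HDAC1 cells, with 600.2, 619 and 565 CPM with TGFB1, against 496, 563 and 507 CPM with vehicle (log2 fold change 0.19 ± 0.07, adjusted p = 0.034), a call that ended in 7 of 18 alternatives. Those included leaving out any 1 of the 3 TGFB1 libraries, replicate 1 or 3 of the vehicle group, or replicate 1 of empty vector with TGFB1 (adjusted p up to 0.233). P4hb, Pdia3 and Pdia6 were not called with either plasmid. Their log2 fold changes were 0.07 ± 0.07, 0.10 ± 0.08 and 0.11 ± 0.08 in HDAC1 cells, and 0.05 ± 0.07, -0.16 ± 0.08 and 0.09 ± 0.08 in empty vector cells.

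ER-associated degradation pulls misfolded proteins out of the ER for the proteasome. Of its 6 genes here, TGFB1 raised 1 (16.7%) and lowered 2 (33.3%) with either plasmid. Over all genes 24.2% to 25.9% were called in 1 direction, and 6 genes are too few to tell these shares apart. Edem1 (ENSRNOG00000055365), a mannosidase-like protein that marks misfolded glycoproteins, had 327, 337 and 320 CPM with TGFB1, against 208, 217 and 217 CPM with vehicle, in HDAC1 cells. Edem1 had 311, 300.1 and 293 CPM with TGFB1, against 216, 223 and 204 CPM with vehicle, in empty vector cells. Its log2 fold changes of 0.62 ± 0.06 (adjusted p = 2.12e-08) and 0.49 ± 0.06 (adjusted p = 4.03e-07) had the smallest adjusted p of the 33 genes in each comparison, and its groups did not overlap. Sel1l, the adaptor of the HRD1 ubiquitin ligase, went the other way, with 216, 219 and 218 CPM with TGFB1, against 258, 271 and 262 CPM with vehicle, in HDAC1 cells. Sel1l had 231, 232 and 204 CPM with TGFB1, against 308, 314 and 290.1 CPM with vehicle, in empty vector cells. It fell by 0.28 ± 0.06 (adjusted p = 0.000904) and by 0.45 ± 0.06 (adjusted p = 3.25e-06) on the log2 scale. Syvn1, the gene of HRD1 itself, fell by 0.24 ± 0.08 with HDAC1 (adjusted p = 0.0142) and by 0.30 ± 0.08 with the empty vector (adjusted p = 0.00295). Without replicate 1 of HDAC1 with TGFB1 the first of these calls ended (adjusted p = 0.0521). Herpud1, a scaffold of that ligase, and the derlin Derl1, a membrane protein of this pathway, were not called (log2 fold changes from -0.08 to 0.11). Derl3 had 1.17 to 2.39 CPM over the 12 libraries and SEs of 0.26 on the log2 scale, so changes of the size of the others were not detectable at this depth.

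Of the sensors and Xbp1, TGFB1 raised Ern1 and Xbp1 with either plasmid. Ern1, the gene of IRE1, had 46.0, 47.2 and 46.4 CPM with TGFB1, against 32.8, 32.2 and 34.3 CPM with vehicle, in HDAC1 cells. Ern1 had 42.0, 42.6 and 28.9 CPM with TGFB1, against 28.9, 25.3 and 26.4 CPM with vehicle, in empty vector cells. The third of those TGFB1 libraries, the one that stood apart, overlapped the vehicle libraries. The log2 fold changes were 0.49 ± 0.10 (adjusted p = 0.000588) with HDAC1 and 0.49 ± 0.11 (adjusted p = 0.00065) with the empty vector, and the second was 0.63 without that library. Xbp1, whose spliced form is the active factor, had 136, 143 and 139 CPM with TGFB1, against 108, 120.2 and 104 CPM with vehicle, in HDAC1 cells, and 152, 149 and 165 CPM with TGFB1, against 132, 120.1 and 129 CPM with vehicle, in empty vector cells. It rose by 0.33 ± 0.07 (adjusted p = 0.000301) and by 0.29 ± 0.07 (adjusted p = 0.000919) on the log2 scale. Eif2ak3, the gene of PERK, fell in empty vector cells, with 38.1, 36.4 and 34.2 CPM with TGFB1, against 45.2, 41.9 and 43.4 CPM with vehicle (log2 fold change -0.26 ± 0.07, adjusted p = 0.00266). In HDAC1 cells it had 35.5, 36.0 and 35.4 CPM with TGFB1, against 36.4, 38.3 and 37.3 CPM with vehicle (-0.07 ± 0.07, adjusted p = 0.436). Atf6 was not called (0.13 ± 0.10 with HDAC1 and 0.06 ± 0.10 with the empty vector, adjusted p = 0.286 and 0.625).

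In the ATF4 branch, TGFB1 lowered 3 of 5 genes (60%) and raised 0 with either plasmid. Over all genes 24.2% were called lower in HDAC1 cells and 25% in empty vector cells. The 27 further ATF4 targets given below did not share this direction. Of them 11 rose and 8 fell in HDAC1 cells, and 12 rose and 9 fell in empty vector cells. Atf4 itself was not called, with log2 fold changes of 0.14 ± 0.08 (adjusted p = 0.122) in HDAC1 cells and 0.11 ± 0.08 (adjusted p = 0.224) in empty vector cells. Its activity is known to be set mostly by translation, which was not measured. Ddit3 (ENSRNOG00000006789), the gene of CHOP, a factor that promotes cell death under lasting stress, had 103, 93.5 and 97.8 CPM with TGFB1, against 151, 136 and 138 CPM with vehicle, in HDAC1 cells. Ddit3 had 93.9, 97.2 and 108 CPM with TGFB1, against 144, 142 and 138 CPM with vehicle, in empty vector cells. No TGFB1 library reached the lowest vehicle library, and Ddit3 fell by 0.53 ± 0.07 with HDAC1 (adjusted p = 1.13e-06) and by 0.50 ± 0.07 with the empty vector (adjusted p = 2e-06) on the log2 scale. Trib3, a pseudokinase gene switched on by ATF4 and CHOP, fell by 0.28 ± 0.09 (adjusted p = 0.0108) and by 0.36 ± 0.09 (adjusted p = 0.00162). Without replicate 1 of HDAC1 with vehicle the call in HDAC1 cells ended (adjusted p = 0.0717). A second identifier bears the name Ddit3, and it held 272 counts in all, against 35535 for the one used.

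The remaining genes of the branch were called with 1 plasmid only. Ppp1r15a (GADD34), the subunit that lets a phosphatase restart translation, fell in empty vector cells, with 54.2, 63.6 and 54.7 CPM with TGFB1, against 73.2, 68.0 and 72.2 CPM with vehicle (log2 fold change -0.31 ± 0.08, adjusted p = 0.00363). In HDAC1 cells it had 85.8, 72.5 and 80.7 CPM with TGFB1, against 88.9, 74.6 and 85.4 CPM with vehicle, and these groups overlapped (-0.06 ± 0.08, adjusted p = 0.55). Chac1, an enzyme that breaks down glutathione, fell in HDAC1 cells, with 19.7, 18.5 and 19.7 CPM with TGFB1, against 28.4, 24.1 and 29.2 CPM with vehicle (-0.50 ± 0.11, adjusted p = 0.000863). Chac1 had 15.7, 18.2 and 15.9 CPM with TGFB1, against 21.0, 14.7 and 20.4 CPM with vehicle, in empty vector cells (-0.18 ± 0.12, adjusted p = 0.213). The tests of the difference between plasmids are given with the interaction below.

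Sec24d, a subunit of the COPII coat that loads cargo such as procollagen into vesicles leaving the ER, had 175, 199 and 180.3 CPM with TGFB1, against 133, 138 and 129 CPM with vehicle, in HDAC1 cells. Sec24d had 217, 186 and 196 CPM with TGFB1, against 153, 139 and 144 CPM with vehicle, in empty vector cells. The groups were separate, with log2 fold changes of 0.48 ± 0.07 (adjusted p = 7.12e-06) and 0.46 ± 0.07 (adjusted p = 1.04e-05). Sec61b, a subunit of the channel through which new proteins enter the ER, was not called (0.08 ± 0.08 and 0.20 ± 0.08, adjusted p = 0.432 and 0.0505). Over all 33 genes, the 3 TGFB1 libraries lay wholly above the 3 vehicle libraries for 15 genes and wholly below for 7 in HDAC1 cells, where 30% and 30.7% of all genes did so. In empty vector cells the counts were 10 and 8 of the 33 genes, near the shares of 28.6% and 27.4% of all genes that did so.

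**Figure D3:**
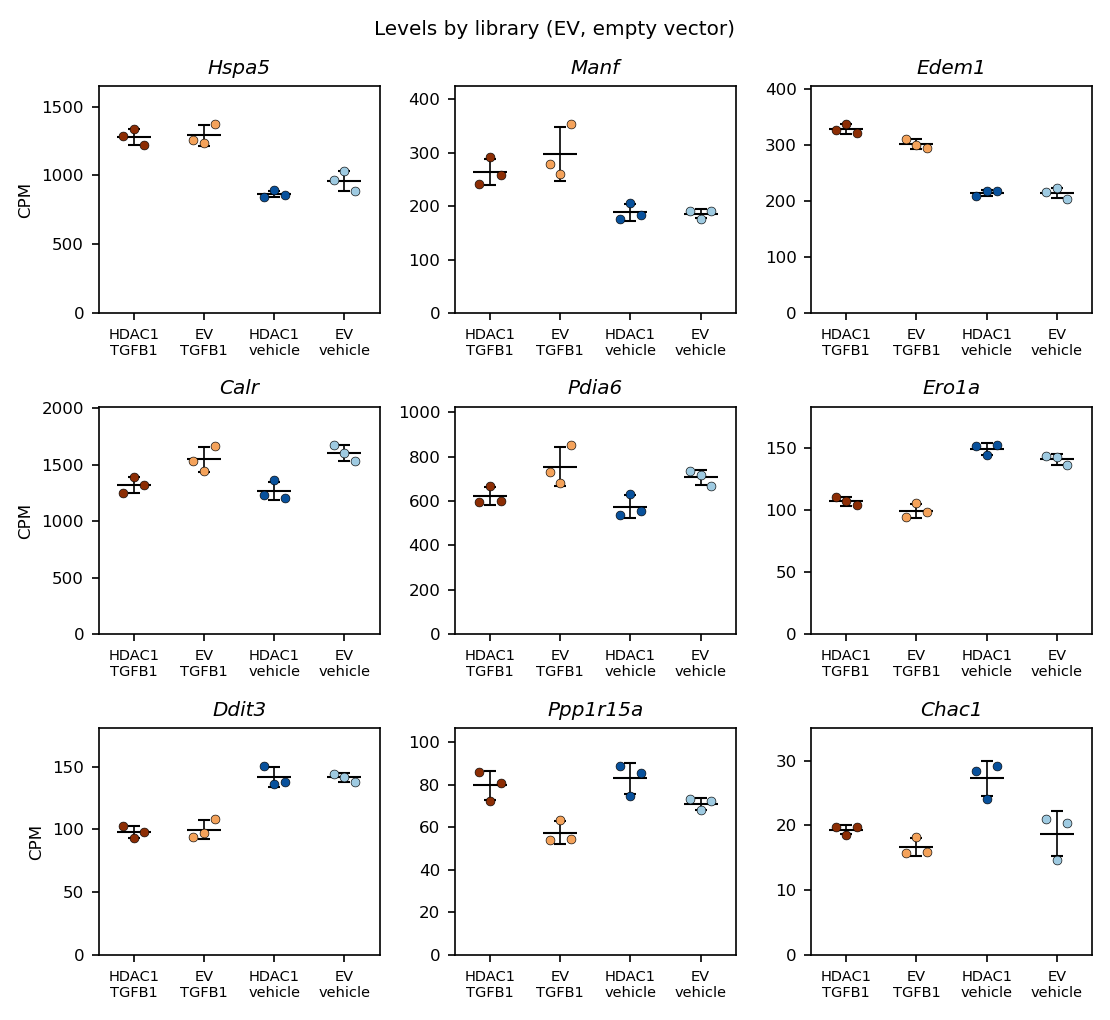
CPM of 9 of the genes in each library, with a panel per gene, a point per library, a bar at the mean of each group and error bars of 1 SD (n = 3), on axes that start at 0. Hspa5, Manf and Edem1 are higher and Ero1a and Ddit3 lower in the TGFB1 groups, Calr and Pdia6 are lower in the HDAC1 groups than in the empty vector groups under the same treatment, and Ppp1r15a is lowest in empty vector with TGFB1.

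Set beside the promoter sequences, 7 of the 11 genes with an ERSE or ERSE-II rose with TGFB1 with either plasmid. They were Hspa5, Hsp90b1, Hyou1, Dnajb11, Dnajc3, Creld2 and Xbp1. Calr, Herpud1 and Derl3 were not called with either plasmid, and 1 gene whose site is not printed was called higher in HDAC1 cells only. Of all genes, 25.9% in empty vector cells and 24.9% in HDAC1 cells were called higher. The share of all genes called higher in both was not counted. Among genes whose promoter held neither element, Edem1 rose and Sel1l, Syvn1, Ddit3 and Trib3 fell with either plasmid. Of the 3 genes with a CARE, Trib3 fell with either plasmid, Chac1 fell in HDAC1 cells and Herpud1 was not called. This is a description of few genes and was not tested.

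Among the genes that HDAC1 lowered in vehicle were 4 of the 5 disulfide enzymes and calreticulin. Calr, Pdia3, Pdia4, Pdia6 and P4hb, together with Hyou1, Sdf2l1, Sel1l and Eif2ak3, fell, and Chac1 rose. That is 9 of 33 genes lower (27.3%), where 7.32% of all genes tested were called lower, and 1 higher (3.03%), where 6.64% were (14% either way). The median log2 fold change of the 33 genes was -0.12, against -0.01 over all genes. HDAC1 libraries lay wholly below empty vector libraries for 13 of the 33 genes and wholly above for 5, where 17.3% and 15.2% of all genes did so. The calls differed in how firmly they stood. Over 18 alternatives, Calr and Chac1 were called in each, Pdia3 lost its call in 1, Pdia4 in 3, Pdia6 in 4, Sel1l in 5, Eif2ak3 in 6, Hyou1 in 8, P4hb in 9 and Sdf2l1 in 10. Without replicate 1 or 3 of HDAC1 with vehicle, or without replicate 2 of empty vector with vehicle, 2 of the 9 were still called, without replicate 1 of empty vector with vehicle 3 were, and without replicate 3 of HDAC1 with TGFB1 5 were. In this comparison 4 of the 6 fibroblast markers (66.7%) were also called lower and 1 higher. The count of ER genes called higher was 2 without replicate 2 of HDAC1 with vehicle, and 3 and 4 without replicates 2 and 3 of empty vector with TGFB1.

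Of the 5 disulfide enzymes 4 fell. Pdia3 (ERp57), which works with calreticulin and calnexin on glycoproteins, had 984, 993 and 969 CPM with HDAC1, against 1207, 1385 and 1080 CPM with the empty vector. Pdia4 (ERp72) had 496, 563 and 507 CPM with HDAC1, against 639.6, 672 and 590.2 CPM with the empty vector, and Pdia6 (P5) had 536, 634 and 555 CPM, against 735, 718 and 670.2 CPM. P4hb, protein disulfide isomerase, which is also a subunit of the collagen prolyl hydroxylase, had 1545, 1592 and 1496 CPM with HDAC1, against 1858, 1805 and 1700 CPM with the empty vector. In each of the 4 genes all HDAC1 libraries lay below all empty vector libraries, and the log2 fold changes were -0.32 ± 0.08, -0.28 ± 0.07, -0.30 ± 0.08 and -0.21 ± 0.07 (adjusted p = 0.0066, 0.011, 0.0172 and 0.0338). Ero1a, the oxidase of the set, was not called (0.09 ± 0.06, adjusted p = 0.376).

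Calr had 1234, 1362 and 1208 CPM with HDAC1, against 1676, 1604 and 1529 CPM with the empty vector. The groups did not overlap, the log2 fold change was -0.34 ± 0.07 (adjusted p = 0.00263), and this call held in all 18 alternatives. Its partner lectin Canx was at -0.08 ± 0.06 (adjusted p = 0.418), and Hspa5, with 845, 892 and 858 CPM against 966, 1030 and 887 CPM, at -0.15 ± 0.07 (adjusted p = 0.151). Hyou1 had 211, 246 and 231 CPM with HDAC1, against 278, 257 and 267 CPM with the empty vector (-0.22 ± 0.07, adjusted p = 0.0378). Sdf2l1 had 33.9, 40.2 and 35.5 CPM with HDAC1, against 50.2, 40.4 and 46.7 CPM with the empty vector (-0.33 ± 0.11, adjusted p = 0.0458). Outside the folding enzymes, Sel1l was at -0.21 ± 0.06 (adjusted p = 0.0286) and Eif2ak3 at -0.22 ± 0.07 (adjusted p = 0.0296). Xbp1 just missed the threshold, with 108, 120.2 and 104 CPM with HDAC1, against 132, 120.1 and 129 CPM with the empty vector (-0.20 ± 0.07, adjusted p = 0.0501). Ern1 was at 0.30 ± 0.11 with all HDAC1 libraries above the empty vector libraries (adjusted p = 0.0673).

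Chac1 was the gene that rose with HDAC1 in vehicle, with 28.4, 24.1 and 29.2 CPM with HDAC1, against 21.0, 14.7 and 20.4 CPM with the empty vector. The log2 fold change was 0.54 ± 0.11 (adjusted p = 0.00229), it was the largest of the 33 genes in this comparison, and the call held in all 18 alternatives. The other ATF4 genes were not called, with Ppp1r15a at 0.22 ± 0.08 (adjusted p = 0.0697), Atf4 at 0.04 ± 0.08, Ddit3 at 0.00 ± 0.07 and Trib3 at -0.05 ± 0.08. In vehicle the heart sums of the HDAC1 and empty vector groups overlapped, and of the 20 heart genes edgeR called 0 higher and 0 lower. The heart sums of the empty vector group ran from 66.5 to 390.1 CPM, a spread that can hide a difference. Log2 fold changes were above 0 in 19 of the 20 heart genes, at a median of 0.39, and in 15 of the 18 brain genes.

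**Figure D4:**
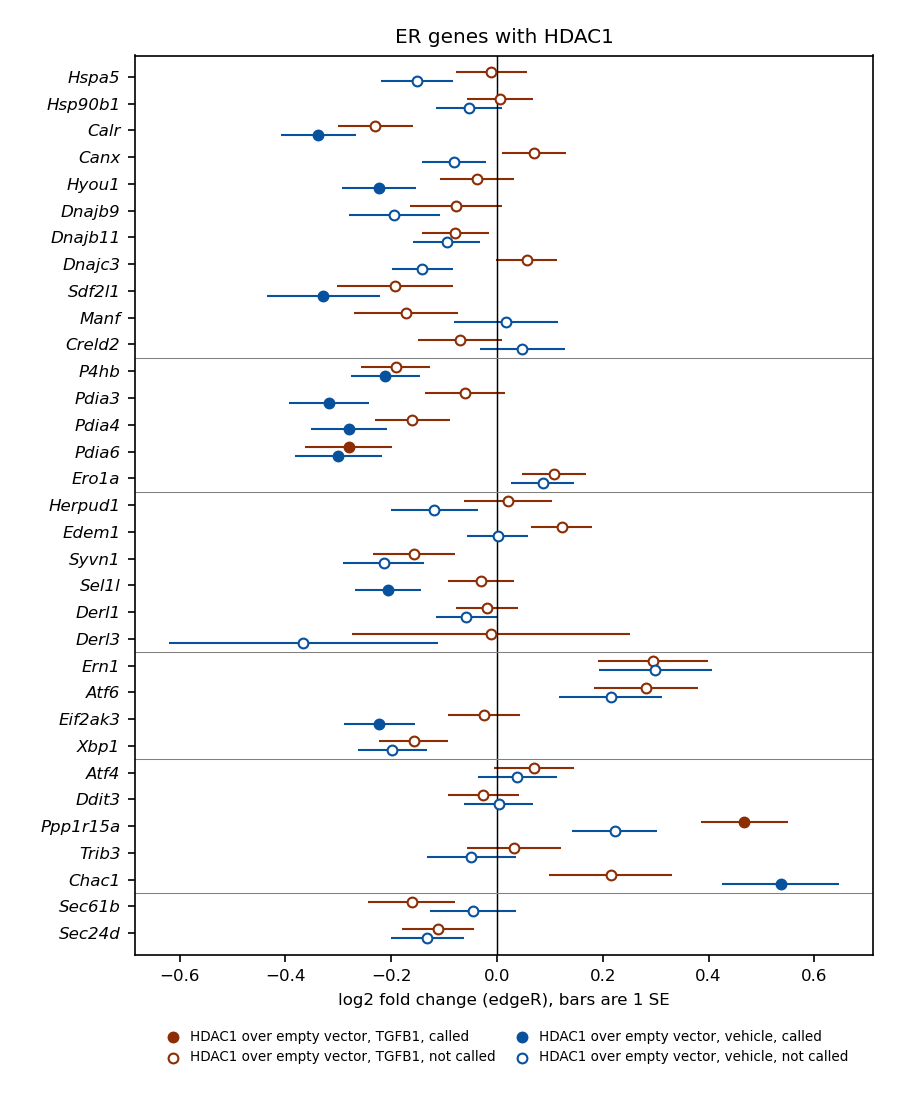
Log2 fold change of HDAC1 over empty vector for each of the 33 genes (rows, grouped by role) with TGFB1 and with vehicle, with bars of 1 SE and filled points for genes called at an adjusted p under 0.05. In vehicle the filled points of Calr and of 4 disulfide enzymes lie between -0.34 and -0.21 and that of Chac1 at 0.54. With TGFB1 the filled points are Pdia6 at -0.28 and Ppp1r15a at 0.47.

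Under TGFB1, HDAC1 left few differences past the threshold. Pdia6 fell and Ppp1r15a rose, so 1 of 33 genes (3.03%) was called in each direction, where 4.36% of all genes were called lower and 2.17% higher (6.53% either way). The median log2 fold change was -0.03 over the 33 genes and -0.00 over all genes. HDAC1 libraries lay wholly below for 5 of the 33 genes and wholly above for 5, near the shares of 15.6% and 13.3% of all genes that did so. Ppp1r15a had 85.8, 72.5 and 80.7 CPM with HDAC1, against 54.2, 63.6 and 54.7 CPM with the empty vector, with no overlap. Its log2 fold change was 0.47 ± 0.08 (adjusted p = 0.00201), and the call held in all 18 alternatives. Pdia6 had 595, 670 and 600.5 CPM with HDAC1, against 731, 681 and 854 CPM with the empty vector (-0.28 ± 0.08, adjusted p = 0.0457). That call ended in 12 of 18 alternatives. It ended without any 1 library other than replicate 2 of HDAC1 with TGFB1, of empty vector with TGFB1 or of HDAC1 with vehicle (adjusted p up to 0.206). Without replicate 3 of empty vector with TGFB1, the highest library, its log2 fold change was -0.18. Without replicate 2 of empty vector with TGFB1, 3 genes were called in each direction, and without replicate 2 of HDAC1 with vehicle 2 were called lower. The 3 heart sums of the HDAC1 group (140 to 157 CPM) lay below those of the empty vector group (414 to 525 CPM) in this comparison.

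Some of the genes that fell in vehicle had values below 0 here without passing the threshold. Calr had 1247, 1391 and 1319 CPM with HDAC1, against 1534, 1444 and 1664 CPM with the empty vector, and its groups did not overlap (-0.23 ± 0.07, adjusted p = 0.0558). P4hb had 1581, 1674 and 1602 CPM, against 1882, 1712 and 1952 CPM (-0.19 ± 0.07, adjusted p = 0.0803), also without overlap. Pdia3 was at -0.06 ± 0.08 (adjusted p = 0.682) and Pdia4 at -0.16 ± 0.07 (adjusted p = 0.183). Atf6 was at 0.28 ± 0.10 (adjusted p = 0.091) and Ern1 at 0.30 ± 0.10 (adjusted p = 0.0935), and in both genes the low value of replicate 3 of empty vector with TGFB1 (59.4 and 28.9 CPM) is part of the empty vector mean. Chac1 was at 0.21 ± 0.12 (adjusted p = 0.275). The 2 HDAC1 comparisons share no library, but they come from the same fit and share its estimate of the spread. Pdia6 was the gene called in both, which is 1 of the 9 called lower in vehicle and the only 1 called lower with TGFB1. How many of all genes were called lower in both was not counted.

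The interaction asks whether the HDAC1 effect differed between TGFB1 and vehicle, which is the same as whether the TGFB1 effect differed between HDAC1 and empty vector cells. Of the 33 genes edgeR called 0, at a lowest adjusted p of 0.299, and DESeq2 called 0, with 3 genes at an unadjusted p under 0.05 in edgeR. These were Pdia3 (0.26 ± 0.11 on the log2 scale, adjusted p = 0.299), Dnajc3 (0.20 ± 0.08, adjusted p = 0.299) and Ppp1r15a (0.24 ± 0.11, adjusted p = 0.37). Over all genes tested 0.137% were called higher and 0.342% lower (0.479% either way). For the genes called with 1 plasmid only, the differences were 0.20 ± 0.10 for Eif2ak3 (adjusted p = 0.391), -0.32 ± 0.16 for Chac1 (adjusted p = 0.405), 0.15 ± 0.09 for Canx (adjusted p = 0.472), 0.12 ± 0.10 for Pdia4 (adjusted p = 0.673) and 0.14 ± 0.15 for Sdf2l1 (adjusted p = 0.766). A response that differed between plasmids was thus not shown for any of the 33 genes. SEs of 0.08 to 0.37 on the log2 scale leave room for differences of the size of the smaller effects. For genes with larger TGFB1 effects the interaction could be small beside them, as in Ero1a (0.02 ± 0.09) and Ddit3 (-0.03 ± 0.09). Of the 33 values 27 were above 0, a larger share than the 7495 of 14601 over all genes tested. The median was 0.07 over the 33 genes and 0.01 over all genes, and this lean was not tested.

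Secretory load was described as the share of all counts that fell on 48 of 50 genes of matrix and other secreted proteins (collagens, fibronectin, thrombospondins, proteoglycans, matricellular and growth factor-binding proteins). It was 3.18%, 3.66% and 3.44% in HDAC1 with TGFB1 and 4.45%, 3.80% and 3.71% in empty vector with TGFB1. In vehicle it was 2.23%, 2.59% and 2.47% with HDAC1 and 3.13%, 2.98% and 2.88% with the empty vector. Load was higher with TGFB1 than with vehicle for either plasmid, and lower with HDAC1 than with the empty vector for either treatment, with no overlap between the groups compared. The means were 3.43% ± 0.241, 3.99% ± 0.403, 2.43% ± 0.184 and 2.99% ± 0.126 in the same order (SD, n = 3 each). The 33 ER genes took 1.15% ± 0.0258, 1.23% ± 0.0456, 1.08% ± 0.0261 and 1.20% ± 0.0488 of the counts in that order of groups. For each 100 counts of cargo there were 33.8 ± 2.05 counts of the 33 genes in HDAC1 with TGFB1, 31.0 ± 3.52 in empty vector with TGFB1, 44.6 ± 2.74 in HDAC1 with vehicle and 40.25 ± 1.91 in empty vector with vehicle. The ratio was lower with TGFB1 than with vehicle for either plasmid. In HDAC1 cells the share of the 33 genes was higher with TGFB1 than with vehicle, with no overlap. In empty vector cells this share overlapped, at 1.217%, 1.186% and 1.276% with TGFB1 against 1.2%, 1.255% and 1.157% with vehicle. These are shares of RNA and not of protein made, and no test was run on them.

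**Figure D5:**
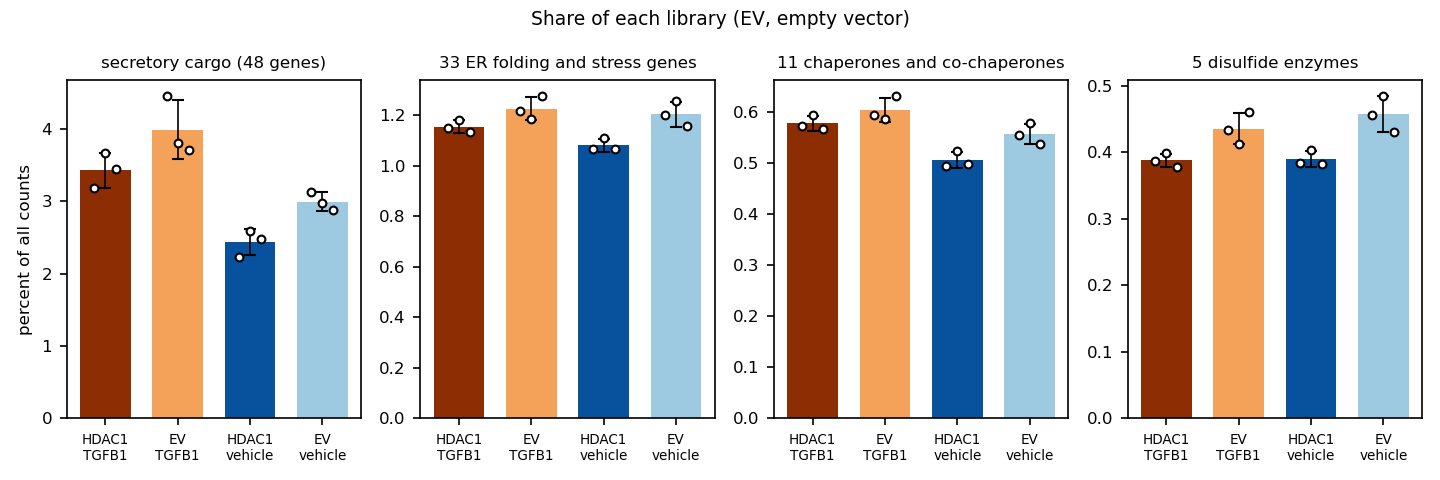
Percent of all counts in each library taken by the secretory cargo, by the 33 ER folding and stress genes, by the 11 chaperones and by the 5 disulfide enzymes, with bars at the group mean, error bars of 1 SD (n = 3) and a point per library, on axes that start at 0. Mean cargo shares are 3.43%, 3.99%, 2.43% and 2.99%, while the chaperone share is 0.577%, 0.604%, 0.505% and 0.557% and the disulfide share 0.388%, 0.436%, 0.390% and 0.457% in the plotted order.

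The genes with the highest levels in this list moved unequally. Fn1 (fibronectin) averaged 7346 ± 567 CPM with TGFB1 and 3836 ± 300.4 CPM with vehicle in HDAC1 cells (log2 fold change 0.94 ± 0.10, adjusted p = 3.24e-07), and 7468 ± 1318 CPM with TGFB1 and 4465 ± 276 CPM with vehicle in empty vector cells (0.74 ± 0.10, adjusted p = 4.74e-06). Thbs1 (thrombospondin 1) rose by 1.19 ± 0.08 (adjusted p = 5.97e-11) and by 1.10 ± 0.08 (adjusted p = 1.93e-10) on the log2 scale. Col1a2, a chain of type I collagen, rose by 0.56 ± 0.12 (adjusted p = 0.000787) and by 0.47 ± 0.12 (adjusted p = 0.00261). Col1a1, the other chain, was at 0.29 ± 0.14 (adjusted p = 0.0993) and 0.14 ± 0.14 (adjusted p = 0.424), and the proteoglycan Bgn at 0.04 ± 0.07 and -0.15 ± 0.07, not called. With HDAC1 in vehicle, Col1a1 had 2777, 3884 and 3465 CPM, against 5727, 5145 and 4726 CPM with the empty vector, and fell by 0.62 ± 0.14 on the log2 scale (adjusted p = 0.00946). Col1a2 fell by 0.54 ± 0.12 and Bgn by 0.33 ± 0.07 (adjusted p = 0.00503 and 0.00339). The smallest adjusted p among cargo genes with HDAC1 in vehicle belonged to the protease gene Mmp2, at -0.48 ± 0.07 (adjusted p = 9.18e-05), and with TGFB1 to Loxl3, a collagen-crosslinking oxidase, which fell with HDAC1 by 0.69 ± 0.09 on the log2 scale (adjusted p = 0.000104). Fbln2, a matrix glycoprotein gene, had the smallest adjusted p among cargo genes with TGFB1 and rose by 2.60 ± 0.08 with HDAC1 and by 2.72 ± 0.08 with the empty vector (adjusted p = 6.81e-16 and 5.01e-16). Of 47 cargo genes tested, TGFB1 raised 26 (55.3%, against 24.9% of all genes) and lowered 11 in HDAC1 cells, and raised 27 (57.4%, against 25.9%) and lowered 10 in empty vector cells. HDAC1 raised 2 and lowered 16 in vehicle (34% lower, against 7.32%), and raised 0 and lowered 8 with TGFB1 (17% lower, against 4.36%).

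Of 26 genes that bring proteins into the ER and attach sugars, 14 (53.8%) were called higher and 1 lower with TGFB1 for either plasmid, where 24.9% of all genes in HDAC1 cells and 25.9% in empty vector cells were called higher, and the first were led by Sec61a1, the pore of the translocon, and Sec11c, a catalytic subunit of signal peptidase. Sec61a1 had 519, 557 and 523 CPM with TGFB1, against 329, 366 and 358 CPM with vehicle, in HDAC1 cells (log2 fold change 0.60 ± 0.06, adjusted p = 7.88e-08), and was at 0.50 ± 0.06 (adjusted p = 8.89e-07) in empty vector cells. Sec11c was at 0.81 ± 0.08 (adjusted p = 1.01e-07) and 1.03 ± 0.09 (adjusted p = 3.26e-09). Of 31 genes of the COPII and COPI coats and their cargo receptors, 13 (41.9%) were called higher and 1 lower in HDAC1 cells and 12 (38.7%) and 3 in empty vector cells. Among them the receptors Tmed2 and Lman1 rose by 0.47 ± 0.06 and 0.48 ± 0.06 in HDAC1 cells (adjusted p = 7.97e-07 and 1.75e-06). HDAC1 in vehicle raised 0 and lowered 1 of the 26 (3.85%) and raised 0 and lowered 4 of the 31 (12.9%). Over all genes 6.64% were called higher and 7.32% lower with HDAC1 in vehicle.

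Of 30 further ER folding genes, TGFB1 raised 11 (36.7%, against 24.9% of all genes) and lowered 4 in HDAC1 cells. It raised 7 (23.3%) and lowered 5 (16.7%) in empty vector cells, shares no higher than the 25.9% and 25% of all genes. Tmx1, a membrane-bound thioredoxin, had the smallest adjusted p and rose by 0.74 ± 0.07 (adjusted p = 1.55e-08) and by 0.55 ± 0.07 (adjusted p = 8.18e-07) on the log2 scale. HDAC1 raised 0 and lowered 5 of these in vehicle (16.7% lower, against 7.32% of all genes). With TGFB1, HDAC1 raised 2 (6.67%, against 2.17%), Dnajc10 and Tmx1, and lowered 2 (6.67%, against 4.36%). The 15 genes that modify and fold collagen showed 4 called higher (26.7%) and 3 lower (20%) with TGFB1 for either plasmid. These shares were near those of all genes, 24.9% and 24.2% in HDAC1 cells and 25.9% and 25% in empty vector cells. The median log2 fold change of the 15 was -0.01 with either plasmid. Plod2, a lysyl hydroxylase, rose by 1.31 ± 0.07 (adjusted p = 1.04e-12) and by 1.20 ± 0.07 (adjusted p = 4.31e-12), and the collagen chaperone Serpinh1 by 0.57 ± 0.08 (adjusted p = 4.34e-06) and by 0.47 ± 0.08 (adjusted p = 4.07e-05). HDAC1 lowered 9 and raised 0 of the 15 in vehicle and lowered 4 and raised 0 with TGFB1. P3h3, of the collagen prolyl hydroxylases, had the smallest adjusted p of these, with a log2 fold change of -0.57 ± 0.09 (adjusted p = 0.000353) in vehicle and of -0.49 ± 0.09 (adjusted p = 0.00417) with TGFB1. The shares of the 15 called lower with HDAC1 were 60% and 26.7%, where 7.32% and 4.36% of all genes were.

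In 21 further degradation genes TGFB1 raised 4 and lowered 4 with either plasmid (19% each way), less than the 24.2% to 25.9% of all genes called in 1 direction. Ngly1, which strips sugars from proteins on their way to the proteasome, fell by 0.44 ± 0.09 (adjusted p = 0.000321) and by 0.74 ± 0.09 (adjusted p = 4.15e-07), and the lectin Os9, a partner of Sel1l, fell by 0.28 ± 0.06 (adjusted p = 0.00107) and by 0.35 ± 0.06 (adjusted p = 9.75e-05) on the log2 scale. Os9 also fell with HDAC1, by 0.30 ± 0.06 (adjusted p = 0.00279) in vehicle and by 0.23 ± 0.06 (adjusted p = 0.0364) with TGFB1. HDAC1 raised 0 and lowered 4 of the 21 in vehicle (19% lower, against 7.32% of all genes). It raised 0 and lowered 3 with TGFB1 (14.3% lower, against 4.36%). Among 16 further genes of stress signalling, TGFB1 raised 6 (37.5%) and lowered 4 (25%) in HDAC1 cells, where 24.9% and 24.2% of all genes were called. It raised 5 (31.2%) and lowered 7 (43.8%) in empty vector cells, where 25.9% and 25% were. More of these genes thus fell than rose in empty vector cells. Creb3l1, a membrane-bound transcription factor known to drive collagen secretion, had 166, 191 and 172 CPM with TGFB1, against 80.2, 91.2 and 89.8 CPM with vehicle, in HDAC1 cells. Creb3l1 had 185, 183 and 166 CPM with TGFB1, against 98.9, 94.2 and 88.2 CPM with vehicle, in empty vector cells. Its groups did not overlap, with log2 fold changes of 1.02 ± 0.07 (adjusted p = 2.52e-10) and 0.93 ± 0.07 (adjusted p = 1.03e-09).

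Of 27 further ATF4 targets, TGFB1 raised 11 (40.7%) and lowered 8 (29.6%) in HDAC1 cells, where 24.9% and 24.2% of all genes were called. It raised 12 (44.4%) and lowered 9 (33.3%) in empty vector cells, where 25.9% and 25% were. The mitochondrial folate enzymes Shmt2 and Mthfd2 rose, by 0.74 ± 0.07 and 0.67 ± 0.06 in HDAC1 cells (adjusted p = 8.56e-09 and 1.1e-08) and by 0.83 ± 0.07 and 0.72 ± 0.06 in empty vector cells (adjusted p = 1.48e-09 and 3.51e-09). The secreted glycoprotein gene Stc2 fell by 0.69 ± 0.09 (adjusted p = 3.6e-06) and by 1.11 ± 0.10 (adjusted p = 5.91e-09). HDAC1 raised 4 and lowered 4 of the 27 in vehicle (14.8% each way, against 6.64% and 7.32% of all genes). With TGFB1, HDAC1 raised 1 (3.7%, against 2.17%) and lowered 2 (7.41%, against 4.36%). The 1 raised with TGFB1 was Atf3, a stress-induced transcription factor gene, with 31.7, 23.1 and 27.9 CPM with HDAC1, against 16.2, 20.8 and 17.9 CPM with the empty vector (0.58 ± 0.12, adjusted p = 0.00591).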

How the data were processed

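RNA of 12 libraries was measured by poly(A) sequencing. Groups follow the titles of the labels. The authors deposited raw counts per gene and a table of normalized signal. Per the submitters' processing notes, Trim Galore 0.6.7, featureCounts of Subread 2.0.1 and DESeq2 1.44 were used. These notes name the build mm10, whereas the identifiers are rat Ensembl genes, so no coordinates come from the files. The aligner, strandedness and handling of shared reads are not given in the sources used here, so genes with near copies are uncertain. In the deposited normalized signal every library's counts were scaled by 1 factor, and that table served for gene names only.

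Raw counts of 43360 genes, with library totals of 18397093 to 36652084, were filtered by filterByExpr (edgeR 4.0.16 in R 4.3.3) to 14601 genes. Libraries were scaled by TMM, and a robust quasi-likelihood model with 1 mean per group was fitted to all 12 libraries (8 residual degrees of freedom). Tests were two-sided, with Benjamini-Hochberg adjustment over all genes tested and a threshold of 0.05. SEs of log2 fold changes were derived from the F statistic. Steps were tested on simulated data.

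The 33 genes and the other lists were chosen with earlier results of these data known, the heart and brain lists among them. Of other lists, up to 3 called genes with the smallest adjusted p per comparison are named, of cargo also the 5 genes with the highest mean CPM, and Hdac1 with its copy. Symbols without a row in the authors' table were not analysed here. Protein sequences were not used here. The promoter site of 1 gene is not reported here. As alternatives, each library was left out in turn, a block for the replicate number was added, only the 2 groups of a comparison were fitted, the filter was dropped or replaced by a minimum mean CPM of 1, and DESeq2 1.42.0 gave other size factors and another test. Library pairs of a group differed by a chi-square per degree of freedom of 3.89 to 19.0, so none was a copy of another.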

Additional observations from a re-analysis of the deposited data

How the results depend on the processing

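Of 50 calls of the 33 genes, 33 held in all 18 alternatives, 17 ended in at least 1 and 0 changed direction. For HDAC1 in vehicle, 1 gene was called higher, and 4 were without the filter on low counts, 3 with a mean CPM of at least 1, 4 in a fit to the 2 groups compared, and 1 to 4 when each library was left out. The 9 called lower became 2 to 11 when each library was left out. For HDAC1 with TGFB1, the 1 called higher became 3 without the filter and 1 to 3 when each library was left out. The 1 called lower became 0 with DESeq2 size factors, 3 with the DESeq2 test, 2 without the filter, 0 in a fit to the 2 groups, and 0 to 3 when each library was left out. The cause was not tested. For TGFB1, leaving out each library gave 10 to 13 genes higher and 5 to 6 lower in HDAC1 cells, and 10 to 12 higher and 7 to 9 lower in empty vector cells. Without Col1a1, Col1a2 and Fn1 the cargo share was 2.04% in HDAC1 with TGFB1, 2.32% in empty vector with TGFB1, 1.49% in HDAC1 with vehicle and 1.73% in empty vector with vehicle, lower because 3 abundant genes were taken out, with the same order of groups. Same-numbered libraries correlated by -0.08 to 0.12 in their deviations and not every library correlated best with its own number. Pairing by number was thus not shown, and 3 libraries per group cannot exclude it. With the replicate block, 13 genes were called higher and 6 lower for TGFB1 in HDAC1 cells, 11 and 7 in empty vector cells, 1 and 6 for HDAC1 in vehicle, 1 and 0 for HDAC1 with TGFB1, and 0 and 0 in the interaction. Depth limits Derl3, at 1.17 to 2.39 CPM, whose SE was 0.26 on the log2 scale.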
